A study of Drosophila melanogaster with 6 samples.

Results

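The genes described here are 9 Drosophila melanogaster genes of redox shuttles, pyruvate and lactate use, ATP export and energy buffering, out of 14138 genes in the deposited table. They were chosen by symbol, as Gpdh, Gpo-1, Mdh1, Mdh2, ImpL3, Mpc1, Argk, sesB and Ant2, with results of the same comparison already known. Their values between stages are therefore given as a description, without p-values. All 9 symbols of the rule were found in the table.

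RNA was measured in olfactory projection neurons, the output cells of the antennal lobe, which relay odour signals to the mushroom body and lateral horn. Development stands for 3 libraries collected 36 h after puparium formation, when the circuit is being assembled, and adult for 3 libraries from flies aged 5 days. Flies of both groups were untreated and were kept on cornmeal food under equal hours of light and dark. Cells carrying GFP were sorted, about 2000 per library, and SMART-seq2, which makes full-length cDNA from little RNA, was used to prepare them. The sources used here do not give the driver line behind the GFP, the sex of the flies or their number per library.

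Glycolysis reduces NAD+ to NADH in the cytosol, and redox shuttles can pass those electrons to the mitochondria. The glycerol phosphate shuttle does this with a cytosolic and a mitochondrial glycerol-3-phosphate dehydrogenase, and the malate-aspartate shuttle with paired malate dehydrogenases and aminotransferases and their carriers. Pyruvate enters the mitochondrial matrix through the mitochondrial pyruvate carrier, and lactate dehydrogenase is another way to recover NAD+. ATP leaves the matrix through adenine nucleotide translocases, and in insects arginine kinase stores its phosphate as phosphoarginine, as creatine kinase does with phosphocreatine in vertebrates. In flies, high Gpdh and arginine kinase activity is best known from flight muscle.

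Recovered reads ran from 18602612 to 42217764 per library, and 7813 to 7979 genes reached 1 CPM (reads per 1000000 reads assigned to listed genes). The labels do not say that replicates came from separate flies or sorts, and p-values therefore reflect library-to-library spread, which may be technical. The neuronal gene elav stood at 230.7 ± 111 CPM in development and at 209.5 ± 15.94 CPM in adult, and acj6, a transcription factor gene of projection neurons, had 169.2 ± 10.22 and 146.4 ± 6.097 CPM (SD, n = 3 each). All 10 markers of projection neurons and neurons were found, with a summed level of 3933 to 5123 CPM in development and 5978 to 6262 CPM in adult, and 4 of 9 tested were higher and 2 lower in adult. The active zone scaffold gene brp, the most abundant over the 6 libraries together, had 1798 ± 81.97 and 2012 ± 82.7 CPM, and the synaptic vesicle gene nSyb, which was above it in each adult library, 1299 ± 383.6 and 2218 ± 132.6 CPM. The cholinergic genes ChAT and VAChT were also higher in adult, at 43.8 ± 8.63 and 569.2 ± 15.41 CPM and at 74.27 ± 21.95 and 216.2 ± 52.52 CPM, as was Syt1, at 272.6 ± 29.17 and 455.6 ± 53.58 CPM. The lower ones were Oaz, at 463.4 ± 31.42 and 296.5 ± 11.77 CPM, and vvl, at 30.74 ± 6.173 and 17.03 ± 0.7217 CPM, while elav, acj6 and brp were not called (limma, adjusted p = 0.8818, 0.106 and 0.1). Without development replicate 1, which had 358.8 CPM of elav, both elav and brp were called higher in adult (limma, adjusted p = 0.01112 and 0.01964), and brp was also called with median of ratios scaling (0.005116).

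Of the 9 genes, 7 passed the filter of at least 5 CPM in at least 3 libraries and 2, ImpL3 and Ant2, did not. Among those 7 genes, 6 were past an adjusted p of 0.05 with a higher adult level, 0 with a lower one and 1 was not past it (limma), where 65.1% of the 6814 genes tested were past it, 27.2% higher and 37.9% lower. The balance of that background follows the scaling, since median of ratios scaling gave 2230 genes higher and 2180 lower in place of 1856 and 2583. The libraries of the groups did not overlap for the same number of members, 6 of 7, and for 69.0% of all genes tested. Because the members were picked with this contrast in view, nothing is read from these counts. In bulk samples fewer cells of a type and less RNA per cell cannot be told apart. The median log2 fold change, taken as adult minus development of log2(CPM + 1), was 0.89 over the 7 genes and -0.15 over all genes tested.

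**Figure D1:**
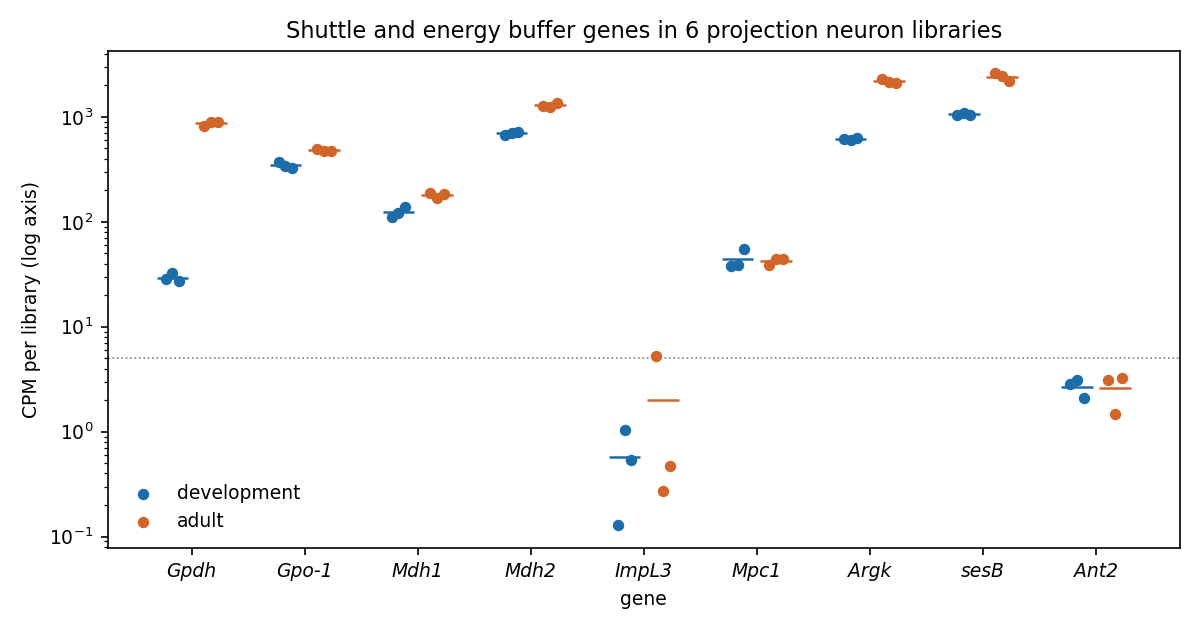
Each point is the CPM of a gene in a library (log axis), with development in blue, adult in orange, the group mean as a bar and the filter of 5 CPM as a dotted line. Gpdh has the widest gap between the groups of 3 libraries, from at most 32.25 to at least 813.2 CPM, while ImpL3 and Ant2 lie near or under the dotted line in all 6 libraries.

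The glycerol phosphate shuttle is formed by Gpdh and Gpo-1. Gpdh (FBgn0001128, named Gpdh1 in the annotation; BDGP6.54, 2L, 5943643 to 5948968, plus strand) encodes the cytosolic NAD-linked enzyme, which turns dihydroxyacetone phosphate into glycerol 3-phosphate. It was measured at 28.2, 32.25 and 27.31 CPM in development replicates 1, 2 and 3. In adult replicates 1, 2 and 3 it stood at 813.2, 883.6 and 899.3 CPM. All adult libraries thus lay far above all development libraries, and each group was tight, with a coefficient of variation of 9.01% in development and 5.3% in adult. The means were 29.25 ± 2.635 and 865.4 ± 45.84 CPM (SD, n = 3), a ratio of 29.58, and the log2 fold change was 4.84 ± 0.112 (SE), the 20th largest rise of 6814. Its values rest on 2500 recovered reads for the development libraries together and 99858 for the adult ones. Summed glial markers were also higher in adult, although single ones moved in both directions, as given at the end. The part of glial RNA in the level of Gpdh was not tested. Of its exonic bases, 22.1% overlap the antisense noncoding gene CR44986, and whether the counting used strand is not known from the sources used here.

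Gpo-1 (FBgn0022160, Gpo1 in the annotation; 2R, 15857752 to 15862755, minus strand) encodes the mitochondrial partner, an inner-membrane enzyme that passes the electrons of glycerol 3-phosphate to the respiratory chain. Its development libraries had 373, 338.3 and 327.6 CPM, and its adult libraries 498.1, 467.4 and 472.7 CPM. The groups did not overlap, but the gap was small beside that of Gpdh. Its log2 fold change was 0.47 ± 0.094 (SE), or a ratio of 1.384 between the mean CPM. Paralogs of Gpo-1 were near 0: CG2137, named Gpo2 in RefSeq, had 2.411 ± 1.533 CPM in development and 2.034 ± 2.486 in adult, and CG7311, named Gpo3, had 0.01792 ± 0.03104 and 0.06377 ± 0.07217 CPM (SD, n = 3). The other two genes of the shuttle list, Gpdh2 and Gpdh3, were not analysed here.

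The order of the shuttle's cytosolic and mitochondrial transcripts turned over between the stages. Per kb of exon, which allows levels to be set side by side between genes, Gpo-1 stood at 14.24, 11.29 and 12.91 times the level of Gpdh in the development libraries. In the adult libraries the ratio was 0.659, 0.569 and 0.566. Development was thus the stage with the mitochondrial transcript in excess, in every library, and adult the stage with the cytosolic transcript in excess. The log2 ratio, with a pseudocount of 1, differed by -4.37 between the stages.

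**Figure D2:**
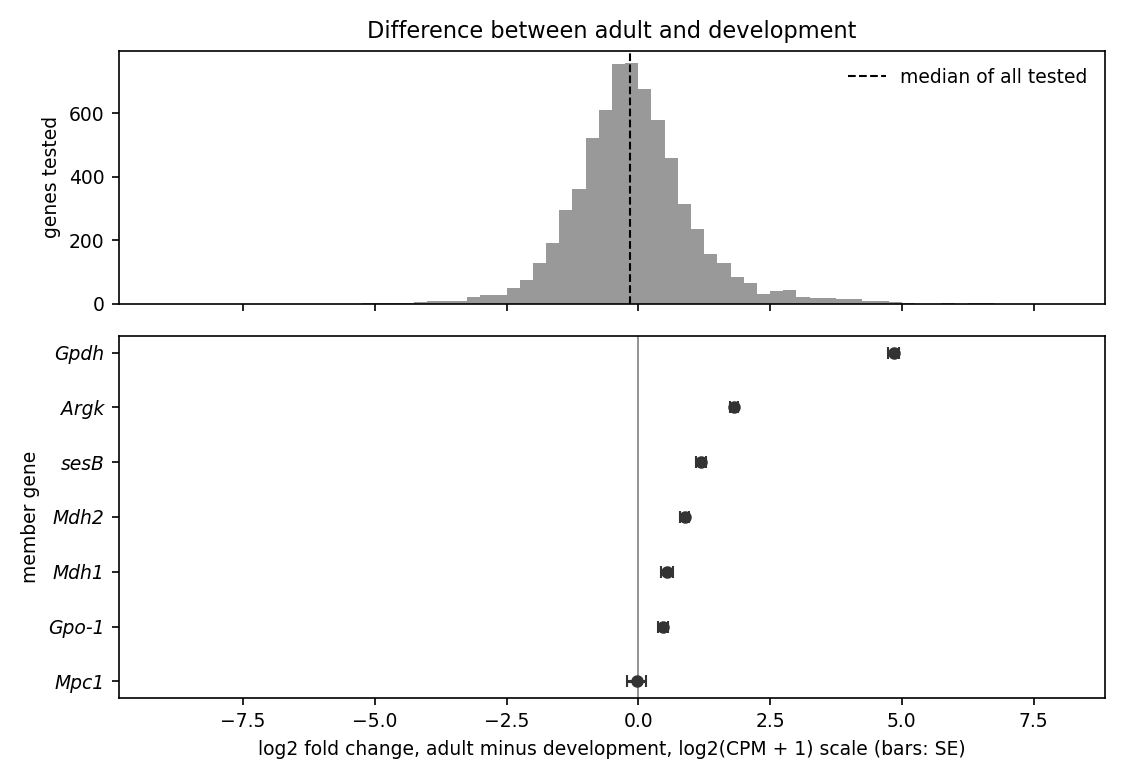
The upper panel is a histogram of the log2 fold change of all 6814 genes tested, with their median as a dashed line, and the lower panel gives the 7 tested members with bars for the SE. Gpdh, at 4.84, lies in the far right tail, Argk and sesB at 1.82 and 1.19 in the right shoulder, and Mpc1, at -0.03, beside 0.

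The malate dehydrogenases interconvert malate and oxaloacetate on either side of the inner membrane. The cytosolic enzyme gene Mdh1 (FBgn0262782; 2L, 10393774 to 10396332, minus strand) had 111.6, 120.7 and 137.8 CPM in the development libraries and 187.4, 168 and 183.3 CPM in the adult libraries. The lowest adult library was above the highest development library, by 168 to 137.8 CPM. Its log2 fold change was 0.54 ± 0.117 (SE). Mdh2 (FBgn0262559; 3R, 18226396 to 18228718, plus strand), which encodes the mitochondrial enzyme shared by the shuttle and the citrate cycle, had 676.8, 700.8 and 710.7 CPM in development. Adult libraries had 1257, 1246 and 1359 CPM, so that no adult value came near a development value. The log2 fold change of Mdh2 was 0.89 ± 0.085 (SE). Per kb of exon, Mdh2 was above Mdh1 in every library, at 5.481 ± 0.452 times its level in development and 6.932 ± 0.396 times in adult (SD, n = 3). This ratio spanned 4.978 to 5.855 in development and 6.475 to 7.161 in adult, without overlap.

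The remaining genes of the malate-aspartate list moved in both directions: of 4 tested genes that are no member, 3 were higher and 1 was lower in adult (limma, adjusted p under 0.05), with a median log2 fold change of 1.49 against -0.15 over all genes tested. Among all genes tested, 27.2% were higher and 37.9% lower. The carrier gene aralar1, whose product exchanges aspartate for glutamate across the inner membrane, rose from 5.042 ± 1.707 to 53.01 ± 4.289 CPM (limma, adjusted p = 4.554e-08). Got2, the mitochondrial aminotransferase gene, rose from 40.37 ± 6.788 to 127.5 ± 19.21 CPM (adjusted p = 7.188e-07). Its cytosolic counterpart Got1 fell from 197.5 ± 13.13 to 103.2 ± 2.787 CPM (adjusted p = 5.141e-06). Here too the order of a cytosolic and a mitochondrial partner changed between stages, but toward the mitochondrial one: per kb of exon Got2 stood at 0.188, 0.23 and 0.206 times the level of Got1 in the development libraries and at 1.108, 1.48 and 1.196 times in adult. This pair was singled out after its values were seen. CG1907, the other risen gene of the list, stood at 65.85 ± 4.191 CPM in development and at 168.1 ± 16.14 CPM in adult. CG10748 and CG10749, also on the list, did not exceed a group mean of 0.57 CPM.

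Malic enzymes draw on the same malate, turning it into pyruvate. Men rose from 264.7 ± 25.25 to 585.7 ± 6.605 CPM and Men-b from 134.4 ± 15.21 to 640.2 ± 49.8 CPM (limma, adjusted p = 2.421e-07 and 1.113e-09). Idh, an NADP-dependent isocitrate dehydrogenase gene, went the other way, from 384.4 ± 28.52 to 102.3 ± 5.203 CPM (adjusted p = 3.96e-09). These 3 genes were the tested members of the malic and NADPH enzyme list, and the other 3 matched genes were below the filter. Among the latter were the pentose phosphate pathway genes Zw, at 0.6335 ± 0.149 and 0.3439 ± 0.5745 CPM, and Pgd, at 2.428 ± 1.225 and 4.59 ± 1.286 CPM in development and adult.

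Lactate dehydrogenase is encoded by ImpL3 (FBgn0001258, Ldh in the annotation; 3L, 6259105 to 6262694, minus strand). Development libraries had 0.1285, 1.042 and 0.5376 CPM, from 4, 36 and 10 recovered reads. Adult libraries had 5.211, 0.2747 and 0.4672 CPM, from 220, 9 and 19 reads. The adult group spread around the development group, and its mean of 1.984 ± 2.796 CPM (SD, n = 3) rests on replicate 1, which holds 220 of the 248 adult reads. The remaining adult libraries were both below development replicates 2 and 3. Per kb of exon, ImpL3 stood at 0.739%, 5.245% and 3.195% of Gpdh in the development libraries and at 1.04%, 0.0505% and 0.0843% in the adult libraries. In each library, then, the transcript of the glycerol phosphate route exceeded that of the lactate route, by 19.07 times at the least. CG13334, on the same list, had 0.297 ± 0.1181 CPM in development and 0.5082 ± 0.8802 in adult.

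Lactate and pyruvate cross the plasma membrane through monocarboxylate transporters. Sln, which encodes such a transporter, went from 69.51 ± 21.66 to 71.45 ± 15.62 CPM with overlapping groups and was not called (limma, adjusted p = 0.8161). The other 2 tested genes of the list that are no member, kar and CG13907, rose, kar from 4.369 ± 2.551 to 13.22 ± 2.577 CPM and CG13907 from 6.37 ± 0.389 to 21.34 ± 3.766 CPM (limma, adjusted p = 0.001342 and 2.345e-05). In development kar reached 5 CPM in replicate 1 alone, at 7.097 CPM, so it passed the filter through its adult libraries.

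Mpc1 (FBgn0038662; 3R, 18926996 to 18928659, minus strand), a subunit gene of the mitochondrial pyruvate carrier, stood apart from the other tested members. Its development libraries had 38.28, 38.53 and 55.26 CPM and its adult libraries 38.96, 44.5 and 43.89 CPM. The adult values lay wholly within the range of development, which is wide because of replicate 3. The log2 fold change was -0.03 ± 0.172 (SE), and its sign was positive under 4 of 13 other settings, at 0.12 with median of ratios scaling, 0.14 without development replicate 3, 0.027 without adult replicate 1 and 0.004 with limma voom. CG9399, listed beside Mpc1, rose from 44.41 ± 1.105 to 129 ± 2.03 CPM (limma, adjusted p = 1.154e-07), while CG9396 had 0.02757 ± 0.0269 and 0.1661 ± 0.229 CPM.

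Around the pyruvate carrier, 7 of 9 tested genes of the pyruvate list that are no member were higher in adult and 0 lower, with a median log2 fold change of 1.21 (limma, adjusted p under 0.05). The shares over all genes tested were 27.2% higher and 37.9% lower. PyK, the pyruvate kinase gene, rose from 129.7 ± 22.59 to 1934 ± 34.89 CPM (adjusted p = 9.642e-12). CG7430 rose from 588.1 ± 77.21 to 1423 ± 37.21 CPM (adjusted p = 1.073e-07). The genes not past the threshold were PCB, the pyruvate carboxylase gene, at 191.7 ± 75.49 and 161.2 ± 30.92 CPM, and Pdk, the pyruvate dehydrogenase kinase gene, at 106.3 ± 8.032 and 126.2 ± 8.466 CPM. Pdk passed with median of ratios scaling (limma, adjusted p = 0.009725) and without development replicate 1 (0.04311). PCB and Pdk were singled out after their values were seen, as the list's tested genes without a call.

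**Figure D3:**
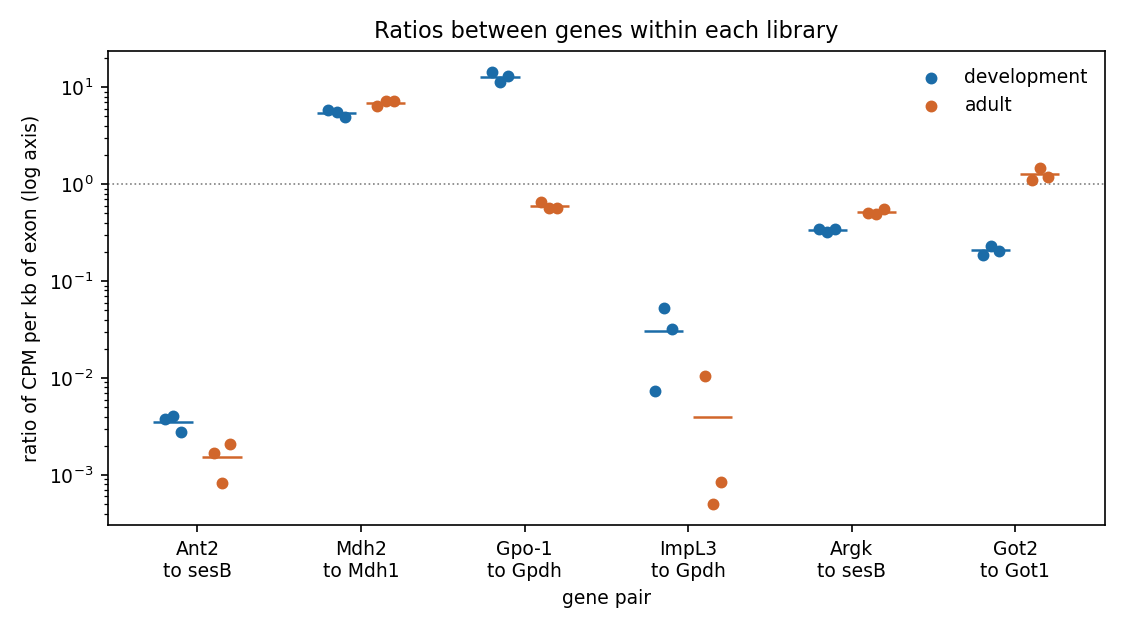
Each point is the ratio of CPM per kb of exon between a pair of genes within a library (log axis), with development in blue, adult in orange, the group mean as a bar and equality as a dotted line. The Gpo-1 to Gpdh ratio crosses the line downward, from a mean of 12.81 to 0.598, and the Got2 to Got1 ratio upward, from 0.208 to 1.261.

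Arginine kinase, the insect phosphagen kinase, is encoded by Argk (FBgn0000116, Argk1 in the annotation; 3L, 9048781 to 9066027, minus strand). The gene had 617.8, 606.1 and 630.6 CPM in the development libraries and 2301, 2123 and 2116 CPM in the adult libraries. Replicates were close together, with a coefficient of variation of 1.97% in development and 4.79% in adult, and the groups were far apart. The means were 618.2 ± 12.21 and 2180 ± 104.5 CPM (SD, n = 3), a ratio of 3.527 and a log2 fold change of 1.82 ± 0.083 (SE). Its relatives were scarce: CG5144, named Argk2 in RefSeq, stood at 4.443 ± 1.261 and then 2.662 ± 2.18 CPM without a call (limma, adjusted p = 0.1415; 0.01148 without adult replicate 3, with a log2 fold change of -1.16). CG4546 had 0.106 ± 0.1592 CPM in development and was at 0 in all adult libraries.

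Of 8 tested genes of the phosphagen and adenylate kinase list that are no member, 4 were higher and 2 lower in adult (limma, adjusted p under 0.05), and their median log2 fold change was 0.51. Of all genes tested, 65.1% were called, 27.2% higher and 37.9% lower. The regulatory subunit genes of the energy sensor AMP-activated kinase rose, alc from 108.1 ± 11.45 to 407.2 ± 15.27 CPM and SNF4Agamma from 38.24 ± 17.82 to 94.01 ± 6.729 CPM (adjusted p = 4.653e-09 and 0.0001827). Adk1, an adenylate kinase gene, rose from 81.54 ± 12.58 to 263.6 ± 17.89 CPM (adjusted p = 8.152e-08). Adk2, another adenylate kinase gene, had 27.72 ± 2.642 and 36.46 ± 2.116 CPM and missed the threshold (adjusted p = 0.05009), which it passed under 6 of 13 other settings (down to 0.01034 with median of ratios scaling). The nucleoside diphosphate kinase gene awd fell from 265.6 ± 25.33 to 90.98 ± 5.509 CPM (adjusted p = 6.238e-08). The other lower gene of the list was Ak6, at 21.46 ± 2.216 and 14.51 ± 1.976 CPM (limma, adjusted p = 0.02782). The phosphagen kinase and the genes for AMP sensing were thus higher in adult beside lower awd and Ak6 transcripts.

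The adenine nucleotide translocases exchange ADP for ATP across the inner membrane. Their genes sesB (FBgn0003360; X, 10780893 to 10786958) and Ant2 (FBgn0025111; X, 10778954 to 10786907) lie together on the minus strand, with most of sesB inside the span of Ant2. They share 102 exonic bases, which are 5.08% of those of sesB and 7.1% of those of Ant2, so reads from that stretch cannot be assigned to either with certainty, and the rest of each gene's exons is its own. The 2 coding sequences are closely related, which leaves the low values of Ant2 in particular uncertain.

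Of the 9 genes, sesB was the most abundant in both groups. It had 1037, 1084 and 1046 CPM in the development libraries and 2595, 2450 and 2196 CPM in the adult libraries. The groups were well separated, and the adult libraries were the more spread out, with a coefficient of variation of 8.36% against 2.33%. Its mean went from 1056 ± 24.64 to 2414 ± 201.8 CPM (SD, n = 3), a log2 fold change of 1.19 ± 0.088 (SE). Ant2 had 2.826, 3.127 and 2.096 CPM in development, from 88, 108 and 39 recovered reads, and 3.127, 1.465 and 3.27 CPM in adult, from 132, 48 and 133 reads. The groups overlapped, and their means of 2.683 ± 0.5297 and 2.621 ± 1.003 CPM differed by less than either SD. Per kb of exon Ant2 stood at 0.28% to 0.403% of sesB in the development libraries and at 0.0835% to 0.208% in the adult libraries. The pair was thus represented almost wholly by sesB at both stages. Argk, the buffer on the cytosolic side, stood per kb at 0.3354 ± 0.0133 times the level of sesB in development and 0.5184 ± 0.0292 times in adult (SD, n = 3), without overlap between the groups.

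Among the other carriers of the inner membrane and the outer membrane channel porin, 6 of 9 tested genes were higher in adult and 0 lower, with a median log2 fold change of 0.445 (limma, adjusted p under 0.05). For comparison, 65.1% of all genes tested were past that threshold, 27.2% higher and 37.9% lower. Dic1, a dicarboxylate carrier gene, rose from 112.1 ± 11.58 to 279.6 ± 18.98 CPM and the phosphate carrier gene Mpcp, which supplies the phosphate for ATP synthesis, from 209.9 ± 10.01 to 496.7 ± 34.25 CPM (adjusted p = 2.577e-07 and 1.13e-07). The carnitine carrier gene colt rose from 25.36 ± 1.869 to 40.92 ± 5.199 CPM (adjusted p = 0.003222). Their log2 fold changes were 1.31, 1.24 and 0.66, beside 1.19 for sesB. The related carrier gene Bmcp passed with 38.23 ± 6.219 and 52.42 ± 8.295 CPM (adjusted p = 0.03648), although its groups overlapped and the call ended without development replicate 2 (0.1209), development replicate 3 (0.1193), adult replicate 1 (0.1218) or adult replicate 3 (0.1047), and with no filter on low values (0.09144). The carrier gene Ucp4A, of the uncoupling protein family, had 40.39 ± 2.763 and 48.69 ± 8.074 CPM and did not pass (adjusted p = 0.186; 0.04117 with median of ratios scaling). Neither did Tpc1, at 52.13 ± 10.68 and 42.98 ± 13.19 CPM (adjusted p = 0.2326; 0.03338 without adult replicate 1), nor sea, at 12.58 ± 2.407 and 12.98 ± 1.539 CPM (adjusted p = 0.8481), of whose exonic bases 85.2% also belong to fabp.

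Levels per kb of exon ordered the members as follows in development: sesB at 526.3 ± 12.28 and Mdh2 at 521.4 ± 13.06 CPM per kb, Argk at 176.4 ± 3.484, Gpo-1 at 118.2 ± 8.11, Mdh1 at 95.7 ± 10.34, Mpc1 at 38.12 ± 8.426, Gpdh at 9.28 ± 0.8359, Ant2 at 1.867 ± 0.3686 and ImpL3 at 0.2932 ± 0.2357 (SD, n = 3). The neighbours sesB and Mdh2 differed by less than their spread, and the other steps exceeded it. In adult the order was sesB at 1203 ± 100.6, Mdh2 at 964.2 ± 46.88, Argk at 622.2 ± 29.82, Gpdh at 274.6 ± 14.54, Gpo-1 at 163.7 ± 5.613, Mdh1 at 139.3 ± 7.902, Mpc1 at 36.75 ± 2.628, Ant2 at 1.824 ± 0.6983 and ImpL3 at 1.022 ± 1.44 CPM per kb. There the last pair, Ant2 and ImpL3, differed by less than the SD of ImpL3, and the other steps exceeded the SD of both genes. Between the stages Gpdh moved up past Mpc1, Mdh1 and Gpo-1, and the order of the other 8 genes stayed the same. Among 14025 genes with an annotated exon length, Gpdh went from rank 4884 to rank 249, Argk from 549 to 82, sesB from 107 to 30 and Mdh2 from 109 to 50.

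**Figure D4:**
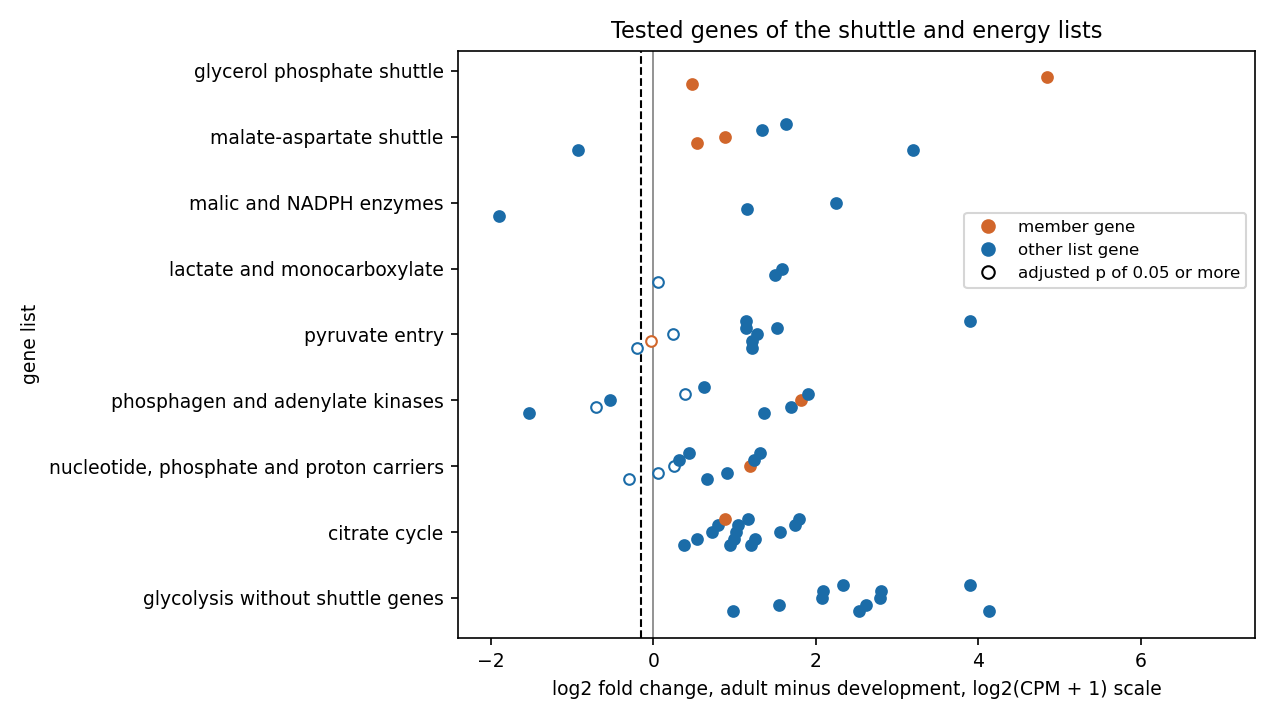
Each point is the log2 fold change of a tested gene, adult minus development, in each of the 9 lists, with members in orange, other genes in blue and open points for genes with an adjusted p of 0.05 or more; the dashed line is the median of all genes tested, -0.15. All tested genes of the citrate cycle and glycolysis lists lie to the right of 0, and the genes left of 0 with a call are Got1, Idh, awd and Ak6.

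The 9 lists named 98 genes, of which 87 were matched to a row, 78 of these were no member and 60 were tested. Of those 60, 48 were higher in adult, 4 lower and 8 neither (limma, adjusted p under 0.05), where 27.2% of all genes tested were higher and 37.9% lower, a split that median of ratios scaling evens out to 2230 and 2180 genes. Glycolysis results of these data were known when the lists were drawn up, so the count is a description. The citrate cycle, which regenerates the malate and oxaloacetate of the shuttle, had 14 of 14 tested genes other than Mdh2 higher in adult, with a median log2 fold change of 1.02. Its largest increases were in subunits of succinate dehydrogenase, with SdhB from 161.4 ± 17.69 to 562.7 ± 64.68, SdhA from 620.1 ± 42.07 to 2070 ± 145.1 and SdhD from 292 ± 30.95 to 858.9 ± 45 CPM (limma, adjusted p at most 1.81e-08). The other subunit gene, SdhC, stood at 430.9 ± 33.71 CPM at the development stage and at 868.9 ± 30.15 CPM in adult, and its log2 fold change of 1.01 was close to the median of the list. Of the exonic bases, 10.6% of SdhB and 13.9% of SdhD overlap a gene on the opposite strand. Mdh2, with a log2 fold change of 0.89, lay just under the median of that list.

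Glycolysis, which makes the cytosolic NADH that the shuttles carry, had 11 of 11 tested genes higher in adult, with a median log2 fold change of 2.53. Beside this, 27.2% of all genes tested were higher and 37.9% lower. Pfk, the phosphofructokinase gene, Hex-A, a hexokinase gene, and PyK had log2 fold changes of 4.13 ± 0.113, 2.8 ± 0.132 and 3.9 ± 0.115 (SE). Gpdh, at 4.84, was above all 11, whereas Gpo-1, Mdh1 and Mdh2, at 0.47 to 0.89, were below all 11, the lowest of which was Gapdh2 at 0.98. Ald, the aldolase gene that makes the substrate of Gpdh, went from 721.3 ± 37.19 to 4427 ± 193.5 CPM and Tpi, whose product acts on the same substrate, from 248.1 ± 17.96 to 1052 ± 50.79 CPM.

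The tested genes most like Gpdh over the 6 libraries, by the root mean square difference of log2(CPM + 1) after each gene was centred on its own mean, were Syngr, CG2680 and CG3009, at 0.096, 0.115 and 0.183. Their levels differed widely: Syngr reached 27.39 ± 1.921 CPM in adult, CG2680 305.3 ± 9.213 CPM and CG3009 39.17 ± 5.121 CPM, each from at most 10.77 CPM on average in development. Syngr and CG3009 were near 0 in development, at 0.09107 and 0.3257 CPM, so their likeness to Gpdh depends on the pseudocount of 1. With a pseudocount of 0.25 their log2 fold changes were 6.367 and 6.251, against 4.877 for Gpdh and 4.813 for CG2680. Closest to Argk were Cngl, retm and norpA, at 0.042, 0.048 and 0.066, with log2 fold changes of 1.82, 1.84 and 1.71. With 2 groups, such likeness rests mostly on a similar difference between the stages.

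Markers of other cell types moved in both directions between the stages. Of 10 glial markers 7 were tested, 3 higher and 2 lower in adult, and their summed level was 309 to 350.8 CPM in development and 490 to 631.4 CPM in adult. The sum was carried by nrv2, at 243.3 ± 12.63 and 194.6 ± 13.38 CPM, and Gs2, a glutamine synthetase gene, at 50.88 ± 9.657 and 333.5 ± 67.35 CPM. Called beside Gs2 were alrm, at 8.397 ± 4.328 and 26.33 ± 6.055 CPM, and Gat, at 3.164 ± 0.6347 and 10.59 ± 1.708 CPM, both higher in adult (limma, adjusted p = 0.000758 and 0.0002494), and wrapper, lower at 7.066 ± 0.6804 and 3.365 ± 2.341 CPM (0.02072). With at most 3.565 CPM in development, Gat passed the filter through its adult libraries alone. The call of wrapper ended without a filter on low values (0.1246) and without development replicate 1 or 2 (0.05831 and 0.05968) or adult replicate 2 or 3 (0.0683 and 0.06945). The other lower call, nrv2 (0.01488), ended with median of ratios scaling (0.1619), without development replicate 2 (0.05867) and without adult replicate 1 (0.06685). The defining glial gene repo was at 0.8508 ± 0.0907 and 1.081 ± 0.2658 CPM, and no glial marker was at 0 in every library. Of 12 muscle markers 11 were below the filter, and 1, Tm1, was lower in adult; among the former was the myosin gene Mhc at 0.7766 ± 0.867 and 0.4379 ± 0.5174 CPM. The muscle sum of 173.3 to 193.1 CPM in development and 83.7 to 100 CPM in adult came mostly from Tm1, at 172.4 ± 10.69 and 85.02 ± 9.747 CPM.

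Fat body markers, of which 7 of 8 were found, summed to 44.77 to 69.88 CPM in development and 54.79 to 77 CPM in adult, with 3 of 6 tested genes higher and 3 lower. Over all genes tested, 27.2% were higher and 37.9% lower. Each of these 6 genes passed the filter through the group in which it was high, so nothing is read from the direction of their calls. The 3 lower genes were Fbp1, Lsp2 and Lsp1beta, with Fbp1 at 25.52 ± 4.863 CPM in development and 2.051 ± 2.975 CPM in adult. The 3 higher genes encode yolk proteins, such as Yp3, at 1.207 ± 1.014 CPM in development and 26.45 ± 8.319 CPM in adult. None of the 6 hemocyte markers found, of 8, passed the filter, and they stayed at 4.181 to 6.074 CPM in sum over all libraries, led by vkg at 4.512 ± 0.3685 and 4.805 ± 1.51 CPM. The 7 markers of olfactory receptor neurons, of which 1 was tested and was higher in adult and 5 were under 1 CPM in every library, summed to 2.113 to 4.464 CPM in development and 23.59 to 37.59 CPM in adult. Orco, at 1.952 ± 1.015 and 28.85 ± 6.512 CPM, made up nearly all of the adult sum but not of the development sum, to which Ir25a added 1.15 ± 0.3221 CPM. Orco was the gene tested, and with at most 2.601 CPM in development it passed the filter through its adult libraries alone. Nothing is read from the direction of its call. The part of glial, muscle, fat body or receptor neuron RNA in the values of the members was not tested.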

How the data were processed

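The authors deposited log2 values per gene for 6 libraries. The values themselves show them to be log2(CPM + 1), since the CPM of each library sum to 1000000. The submitters' processing notes name STAR 2.4.2a and HTSeq 0.7.1 but give no role. The sources used here do not give the genome build, the annotation or whether strand was used. Of 14139 rows, 1 had no symbol (at most 8.6e-05% of a library) and was left out. Low CPM in each library were whole multiples of what a single read is worth, which gave back the reads: 100.0% of values above 0 were whole within 0.1 read.

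Symbols were matched to Ensembl release BDGP6.54 through Ensembl and RefSeq names (14025 of 14138). Levels per kb use the union of annotated exons. Genes with at least 5 CPM in at least 3 libraries were tested with limma 3.58.1 in R 4.3.3 (lmFit, eBayes with trend, two-sided) on log2(CPM + 1), group as the only term, Benjamini-Hochberg adjustment over all 6814 genes and a threshold of 0.05. The pseudocount of 1 understates the change of low genes. A gene that was high at a single stage could pass the filter through that stage alone. The direction of its call then follows largely from the filter. The code was tested on simulated data. No counting intervals were computed, since reads without molecular identifiers are not independent molecules; for ImpL3 and Ant2 the reads are given.

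The members and lists were chosen with earlier results of these data known. Named genes are the members, up to 3 risen and 3 fallen genes per list with a mean of at least 20 CPM, relatives of members, the 3 genes nearest to Gpdh and Argk and the most abundant marker of each list. Alternatives covered pseudocount, filter, scaling, a replicate block, limma voom on recovered reads and leaving out each library. No sequence was read.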

Additional observations from a re-analysis of the deposited data

How the results depend on the processing

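All 6 members with a call kept it, and Mpc1 stayed without one, under all 13 alternatives. Nothing is read from these calls either, since the members were picked with this contrast in view and 65.1% of all genes tested were called. Median of ratios scaling, which moved the median log2 fold change of all genes tested from -0.153 to -0.007, a shift of 0.145, gave log2 fold changes of 4.99 for Gpdh, 1.967 for Argk, 1.34 for sesB, 1.037 for Mdh2, 0.692 for Mdh1 and 0.621 for Gpo-1; these moves come from the scaling itself, which raises adult values against development ones. A pseudocount of 5 gave 4.669 for Gpdh and -4.204 for the log2 ratio of Gpo-1 to Gpdh, since it damps the low development values of Gpdh. Genes called numbered 3796 to 4659 over all settings against 4439, and pathway genes called higher or lower stayed within 1.5 times of 48 and 4. The filter also changed the number tested, so the called share differed more than the count. With the filter at 20 CPM 3796 of 5408 genes were called, and without a filter 4659 of 14138, against 4439 of 6814. The log2 fold change of Sln ran from -0.101 to 0.298 with each library left out in turn, turning negative without development replicate 2 (-0.076), development replicate 3 (-0.046) or adult replicate 1 (-0.101). That of sea ran from -0.089 to 0.171, turning negative without development replicate 2 (-0.089) or adult replicate 3 (-0.029). Sln and sea were called under none of these. That of elav, -0.042 in the fit reported, was 0.109 with median of ratios scaling and ran from -0.226 to 0.326 with each library left out in turn. Of 55 other named genes, 12 changed call or sign under some setting. With the replicate number as a block, 4428 genes were called. Deviations of same-numbered libraries had correlations of -0.0284, 0.0423 and -0.0107, within a range of -0.0427 to 0.0423 over all pairs. With 3 libraries per group, such values cannot show whether the numbers pair the libraries. Limma voom on recovered reads, chosen after seeing the data, called 4436 genes; edgeR was not run. ImpL3 and Ant2 had as few as 4 and 39 reads in a library; the spread of ImpL3 did not follow depth, with 220 and 19 reads in adult libraries of 42217764 and 40668115 reads.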
